A study of Mus musculus with 2 samples.

Results

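Calcium signals in heart muscle are read by calmodulin and passed on by the CaM kinases and by calcineurin, and 9 genes of this relay were described in the newborn mouse heart. The genes were Calm2 and Calm3 (calmodulin), Camk2a, Camk2b, Camk2d and Camk2g (the subunits of CaM kinase II), Ppp3ca and Ppp3cb (catalytic subunits of calcineurin) and Rcan1 (a regulator of calcineurin). They were chosen by name, and all 9 had a row among the 43346 mouse genes of both deposited gene tables. Both libraries came from whole hearts of B6NCrl mice at postnatal day 0, replicate 1 from pup 1 and replicate 2 from pup 3. The input of each was 13 pg of RNA of over 200 nt in length, which the labels equate with 1 cell, although the RNA was from tissue and not from a single cell. RNA was extracted with mirVana, and a Smart-seq protocol is named. The sex was not collected, no genotype or treatment is given beyond the strain, and both pups carry the same donor identifier. The libraries form 1 group without a control, so no test between groups was possible, and a difference between them is one of 2 hearts, 2 RNA aliquots and 2 amplifications together.

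Calmodulin is a small protein that changes shape when it binds calcium and then switches on its partners. Among them, CaM kinase II is a holoenzyme of many subunits, each with a kinase domain, a regulatory segment, a variable linker and an association domain, and the delta and gamma subunits are known as the cardiac ones, while alpha and beta are best known from neurons. Calcineurin is a phosphatase made of a catalytic and a regulatory subunit, which releases NFAT transcription factors to the nucleus. In the heart, CaM kinase II is known for acting on calcium channels, the ryanodine receptor and phospholamban, and both enzymes are known for their part in growth of the muscle.

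Replicate 1 held 39671900 expected counts on mouse genes and replicate 2 held 32751900. Levels are given as TPM, transcripts per 1000000 over mouse genes, a scale that corrects for length, and a gene was called read at 1 TPM or more. The 6 cardiomyocyte markers checked were read in both libraries, while none of the 10 neuron and Schwann cell markers was, their summed level being 1.89 and 1.01 TPM, with 5 of them, among which Rbfox3, Th and Sox10, at 0 in both. Of the 6 skeletal muscle markers, Acta1, which fetal heart also expresses, had 171 and 102 TPM, Mylpf was at 22.1 TPM in replicate 1 but at 0 in replicate 2, and Myh3, Myh8, Tnnt3 and Tnnc2 were at 0 in both. In bulk RNA, fewer cells of a type and less RNA per cell cannot be told apart.

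Of the 9 genes, 7 were read in both libraries, Ppp3cb in replicate 2 only and Camk2b in neither. Among 21474 protein-coding genes, 28.4% were read in both. Averaging at least 5 TPM, 7 of the genes could be compared between the libraries, and 4 of these lay over 2-fold apart on the log2(TPM + 1) scale, as did 54.6% of all 8266 genes at that level. The share over 2-fold apart was 53.4% for genes of 10 to 100 TPM, where 6 of the 7 lay, and 24.3% for those of 100 to 300 TPM, where Calm2 lay. Camk2d and Camk2g were the 2 that were higher in replicate 2 (27.7% of all genes were), and Calm3 and Camk2a the 2 that were higher in replicate 1 (26.9% of all genes were). The median absolute log2 difference of the 7 genes was 1.05, against 1.17 over all genes tested, and the median signed difference, replicate 2 minus replicate 1, was -0.75 against 0.0064. In counts per 1000000, 3 of the 7 genes were over 2-fold apart, Calm3 no longer being so, against 54.4% of all genes. A 4 of 7 share is near the background and shows nothing particular to these genes.

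**Figure D1:**
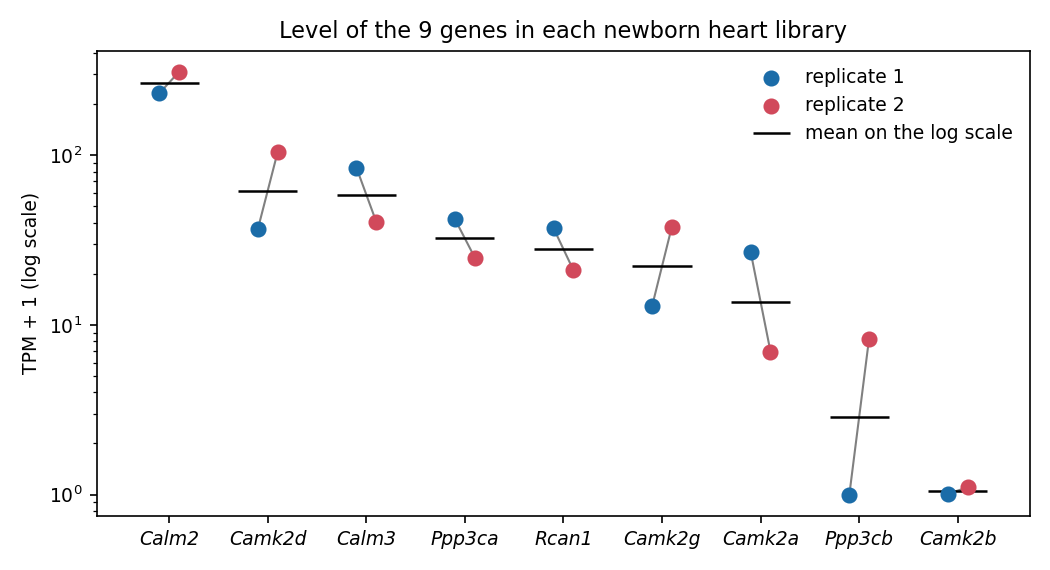
Level of each of the 9 genes in each library, as TPM + 1 on a log axis, with the genes in order of mean TPM; points are single libraries, and bars are means on the log scale (n = 2). Calm2 is the highest in both libraries, at 231 and 309 TPM, and Camk2b lies near 0 TPM in both, as does Ppp3cb in replicate 1.

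**Figure D2:**
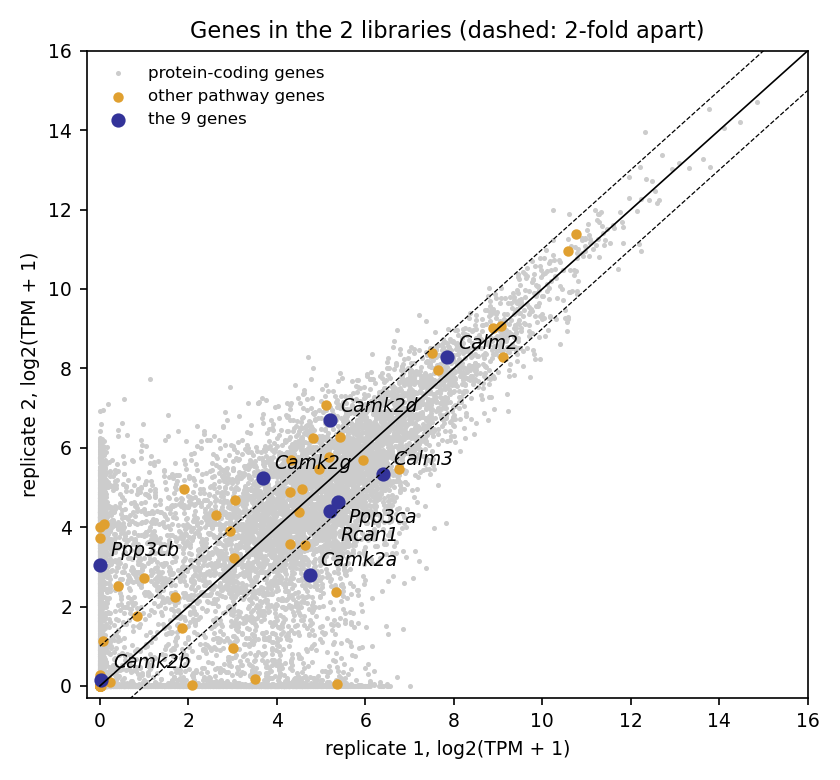
Every protein-coding gene (grey), the other genes of the pathway lists (orange) and the 9 genes (blue), by log2(TPM + 1) in replicate 1 and replicate 2; the solid line marks equal levels and the dashed lines a difference of 1 on the log2 scale. Camk2d and Camk2g lie above the upper dashed line, and Camk2a and Calm3 below the lower one, within the cloud of other genes.

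Calm2 and Calm3 are separate genes that are known to encode an identical calmodulin protein. Calm2 (ENSMUSG00000036438, chr17:87433412-87446935 in GRCm38, minus strand) and Calm3 (ENSMUSG00000019370, chr7:16915379-16924114, minus strand) differed at 78 of the 447 bases of the coding sequence, 82.6% being identical. Of those 78 differences, 74 were at the third position of a codon. The longest identical run was 17 bases, so that reads of either coding sequence can be told from the other. Bases 1 to 60 of the coding sequence are shown for the leading coding model of each gene, 5′ to 3′ from GENCODE, to let the 8 differing bases be seen, which are in capitals.
Calm2: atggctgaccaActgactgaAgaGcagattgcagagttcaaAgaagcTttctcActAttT
Calm3: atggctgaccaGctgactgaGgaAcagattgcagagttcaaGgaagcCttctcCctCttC

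Calm2 had the highest level of the 9 genes, with 231 TPM (7605 counts) in replicate 1 and 309 TPM (9349 counts) in replicate 2, or 269.8 ± 55.2 TPM (SD, n = 2). The libraries differed by 0.42 on the log2 scale, replicate 2 being higher. It stood at the 92.9 and 94.7 percentile of the protein-coding genes that were read.

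Calm3 had 83.4 TPM (3279 counts) in replicate 1 and 39.6 TPM (1382 counts) in replicate 2. Replicate 1 was 2.10-fold higher, so Calm2 and Calm3 moved in opposite directions between the hearts. The log2 ratio of Calm2 to Calm3 was 1.46 in replicate 1 and 2.93 in replicate 2, with a mean of 2.19 ± 1.04 (SD, n = 2). Calm2 was thus higher in both libraries, by 4.58-fold on average, and the mean ratio exceeded 2 SD, the rule used here to describe a pair as different. In counts per 1000000, which do not correct for length, the ratio was 1.97 ± 1.08 and did not exceed 2 SD.

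The sum of Calm2 and Calm3 was steadier than either, at 314 and 348 TPM. Calm2 made 73.5% of that sum in replicate 1 and 88.6% in replicate 2, a mean of 81.0% ± 10.7 (SD, n = 2).

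The 6-exon protein-coding model of Calm2 took 80.9% of the gene's TPM in replicate 1 and 99.7% in replicate 2. The rest went to models annotated with a retained intron. For Calm3 the 6-exon coding model of 2290 bases took 46.1% and 48.6% of TPM, and a short noncoding model of 482 bases took 53.2% and 44.3%. In counts the order was different, the coding model holding 83.0% and 83.6% of the gene's counts. The TPM of Calm3 thus rests in large part on a model with few counts and a short length.

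The CaM kinase II genes gave a sum of 73.5 TPM in replicate 1 against 146 TPM in replicate 2, and Camk2d was the highest of them in both libraries. Camk2d (ENSMUSG00000053819, chr3:126596302-126846326, plus strand) encodes the delta subunit, the main one of cardiac muscle. It had 35.8 TPM (4251 counts) in replicate 1 and 103 TPM (9337 counts) in replicate 2, or 69.5 ± 47.6 TPM (SD, n = 2). Replicate 2 was 2.88-fold higher. Camk2d made 48.7% of the summed CaM kinase II TPM in replicate 1 and 70.6% in replicate 2, a mean of 59.6% ± 15.5 (SD, n = 2). The sum takes in all models of each gene, also a short Camk2a model that lacks the exons of the kinase domain.

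Camk2g (ENSMUSG00000021820, chr14:20734875-20794088, minus strand) encodes the gamma subunit. It had 12.0 TPM (1354 counts) in replicate 1 and 37.0 TPM (3618 counts) in replicate 2. Replicate 2 was 3.09-fold higher, close to the 2.88-fold of Camk2d. The log2 ratio of Camk2d to Camk2g was accordingly 1.504 in replicate 1 and 1.455 in replicate 2, or 1.48 ± 0.03 (SD, n = 2). Camk2d was 2.79-fold above Camk2g, beyond 2 SD, and in counts per 1000000 the ratio was 1.49 ± 0.19. This ratio differed less between the hearts than the level of either gene. Camk2g made 16.3% and 25.3% of the CaM kinase II TPM.

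Camk2a (ENSMUSG00000024617, chr18:60925618-60988152, plus strand) encodes the alpha subunit and went the other way. It had 25.7 TPM (2411 counts) in replicate 1 and 5.96 TPM (146 counts) in replicate 2, a 4.31-fold difference in TPM. In counts per 1000000 the log2 difference, replicate 2 minus replicate 1, was larger, -3.50 against -1.94 in log2(TPM + 1). The effective length behind the TPM was 2903 bases in replicate 1 and 894 bases in replicate 2. Camk2a was 35.0% of the CaM kinase II TPM in replicate 1, more than Camk2g, and 4.08% in replicate 2. Both shares include Camk2a-204, a short model without the exons of the kinase domain. It took 49.3% of the gene's TPM in replicate 1 and 98.5% in replicate 2. Of the neuron and Schwann cell markers, the most abundant one, Tubb3, moved with Camk2a, at 1.23 TPM (70 counts) and 0.39 TPM (19 counts), as did Syt1, at 7 counts and 1 count, while Stmn2 had 0.50 and 0.52 TPM and Snap25 0.094 and 0.092 TPM. Tubb3 in replicate 1 was the only value of the list at 1 TPM or more. The skeletal muscle marker Mylpf was also higher in replicate 1, at 22.1 and 0 TPM, while 4 of the 6 skeletal muscle markers were at 0 in both libraries. Of other markers averaging at least 5 TPM, 1 of 2 for smooth muscle (Tagln) and 1 of 4 for endothelium (Pecam1) were over 2-fold higher in replicate 1. None of the 4 for fibroblasts or the 6 for cardiomyocytes was, and 1 of 2 for macrophages was over 2-fold higher in replicate 2. Of all genes at that level, 26.9% were over 2-fold higher in replicate 1. The part of Mylpf-expressing, Tubb3-expressing or other cells in the Camk2a difference was not tested.

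Camk2b (ENSMUSG00000057897, chr11:5969644-6066362, minus strand), the beta subunit, had 1 count in each library, for which the exact Poisson interval at 95% runs from 0.025 to 5.57 counts. Its TPM was 0.010 in replicate 1 and 0.102 in replicate 2. The single counts were assigned to different noncoding models, Camk2b-215 and Camk2b-211, and the 10 protein-coding models of the gene were at 0 in both libraries. Camk2b was hence at the limit of detection in both hearts.

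**Figure D3:**
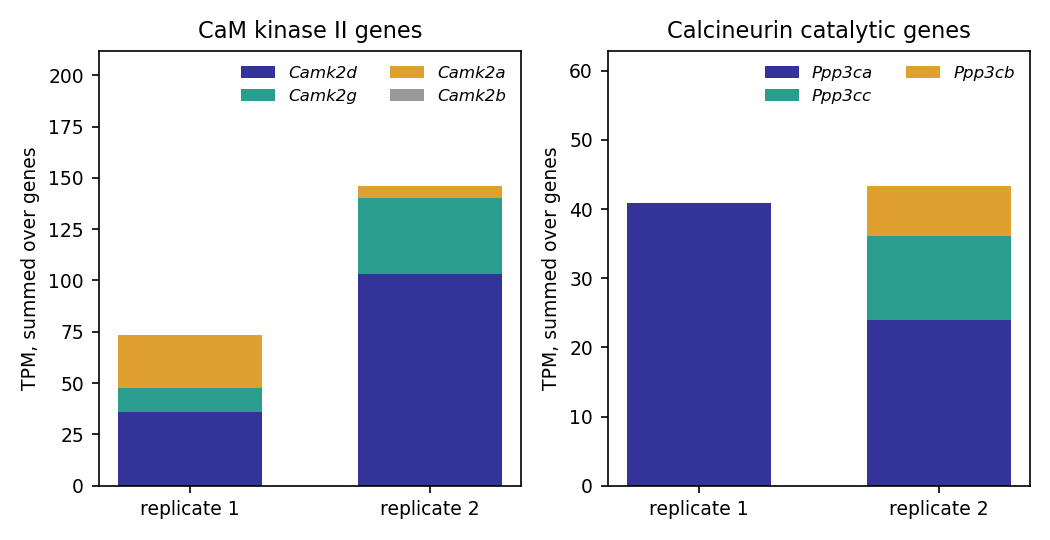
Summed TPM of the CaM kinase II genes (left) and of the calcineurin catalytic genes (right) in each library, stacked by gene, with 1 bar per library and no error bars. All models of a gene are included, also the short Camk2a model that lacks the exons of the kinase domain. The CaM kinase II sum is 73.5 and 146 TPM with Camk2d as the largest block in both, and the calcineurin sum is 40.9 and 43.4 TPM with Ppp3cb and Ppp3cc present in replicate 2 only.

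The linker of Camk2d is known to be spliced into forms that differ in where the kinase goes in the cell, and 3 coding exons of 33, 60 and 42 bases are chosen in different combinations. They lie in GRCm38 at chr3:126802937-126802969, chr3:126805857-126805916 and chr3:126808208-126808249. The 33-base exon, which holds the nuclear localization signal of the form known as delta B, has a counterpart of equal length in Camk2g (chr14:20747819-20747851), and the 2 share 26 of 33 bases, in capitals. All are shown 5′ to 3′ on the coding strand, because the shares that follow are counted by which of them a transcript holds.
Camk2d 33-base exon: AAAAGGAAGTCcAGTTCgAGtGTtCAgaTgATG
Camk2g 33-base exon: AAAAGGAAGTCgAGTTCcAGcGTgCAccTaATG
Camk2d 60-base exon: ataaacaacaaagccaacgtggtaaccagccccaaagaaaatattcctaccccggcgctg
Camk2d 42-base exon: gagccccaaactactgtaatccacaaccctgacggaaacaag

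Of the 22 Camk2d transcript models with a row, 13 had counts in at least 1 library and 9 had none in either. Camk2d-202, which holds the 42-base exon alone, the layout known as delta 9, led in both hearts. It took 70.9% of the gene's TPM (3284 counts) in replicate 1 and 57.9% (6562 counts) in replicate 2, or 64.4% ± 9.16 (SD, n = 2). As a share of counts it was 73.8% on average, more than 1 SD above the share of TPM.

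The layout with the 60-base and the 42-base exon together, known as delta A and best known from neurons, came next. Its full-length model Camk2d-206 took 15.9% (751 counts) and 19.7% (2266 counts). With Camk2d-203, at 0 and 5.19%, the layout reached 15.9% in replicate 1 and 24.8% in replicate 2. The deposited length of Camk2d-203 was 1574 bases against 4169 in the annotation used here, so its exons are not sure to be those of the model counted.

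The 33-base exon alone, the delta B layout, is held by Camk2d-205, which was listed at 0 counts in both libraries, with posterior mean counts of 3.36 and 1.76. Of the layout without any of these exons, known as delta C and the usual cytoplasmic form of adult heart, Camk2d-204 had 0 counts in both libraries and Camk2d-216 had 0 and 24.3, or 0 and 0.21% of TPM. The coding models with the 42-base exon therefore held almost all of the counts of full-length Camk2d in both hearts. A fragment that holds the 33-base exon, Camk2d-218, had 0 counts in replicate 1 and 69.8 in replicate 2, or 8.52% of TPM there; it is annotated with a retained intron, and its deposited length was 389 bases against 591. The deposited length also differed from the annotated one for Camk2d-202 (4110 against 4075 bases), Camk2d-204 (2488 against 2722) and Camk2d-205 (2669 against 3059), so the exons given here are those of the later release, while Camk2d-206 had 4180 bases in both. The counts are estimates that divide shared reads between models, and the posterior SD of Camk2d-202 was 107 counts in replicate 1 and 159 in replicate 2.

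**Figure D4:**
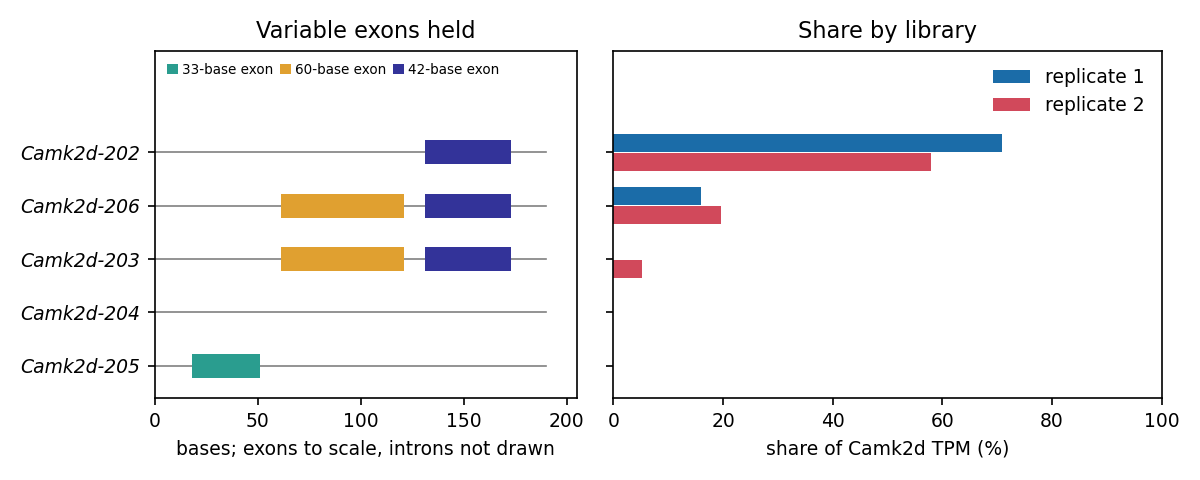
Coding models of Camk2d, with the variable exons that each holds drawn to scale in bases (left) and the share of the gene's TPM in each library in percent (right). Camk2d-202, with the 42-base exon alone, is at 70.9% and 57.9%, Camk2d-206, with the 60-base and 42-base exons, at 15.9% and 19.7%, and Camk2d-204 and Camk2d-205 are at 0 in both libraries.

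Of 5 known splicing factors of Camk2d, 3 were over 2-fold higher in replicate 2 and 1 in replicate 1. Of all genes averaging at least 5 TPM, 27.7% and 26.9% were. A set of 5 genes shows nothing particular to the factors beside these shares. Rbfox1 had 0.063 and 15.8 TPM, Rbfox2 2.74 and 30.1 TPM, and Srsf1 7.30 and 24.6 TPM. All 3 were higher in replicate 2 by over 2-fold in TPM. Ptbp1, at 107 and 43.4 TPM, was over 2-fold higher in replicate 1, and Rbm20, a splicing factor of titin and Camk2d, had 42.2 and 76.2 TPM, within 2-fold. In counts per 1000000, Srsf1 (31.3 and 42.04) and Ptbp1 (201 and 103) were no longer over 2-fold apart, while 54.4% of all genes were. Their part in the exon shares was not tested.

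Camk2g-203 was counted in both hearts, and Camk2g-201 in replicate 2 only. Camk2g-203 took 100% of TPM in replicate 1 (1354 counts) and 32.6% in replicate 2 (1156 counts), where Camk2g-201 took 67.4% (2462 counts). Camk2g-201 differs from Camk2g-203 by the inclusion of the 33-base exon shown above and of a 69-base exon at chr14:20745792-20745860, minus strand. The 69-base exon is shown since, with the 33-base one, it sets the 2 models apart.
Camk2g 69-base exon: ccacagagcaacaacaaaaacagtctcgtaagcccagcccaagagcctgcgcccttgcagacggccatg
Camk2g-201 had 0 counts in replicate 1, but the posterior SD in replicate 2 was 226 counts for it and 214 for Camk2g-203, so the division within that library is uncertain by about as much.

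Camk2a was divided mostly between a full-length and a short model. Camk2a-203, with 18 exons and 1434 coding bases, took 50.7% of TPM (2051 counts) in replicate 1 and 0 in replicate 2. Camk2a-204, with 7 exons and 600 coding bases, took 49.3% (360 counts) and 98.5% (142 counts). Its start lies inside the gene, past 12 exons of Camk2a-203, and it lacks the exons of the kinase domain, as does alphaKAP, an anchoring protein of muscle known to be encoded within Camk2a. The short model thus had counts in both hearts, more in replicate 1, and Camk2a-203 had counts in replicate 1 alone. Another long coding model, Camk2a-201 with 19 exons, had 0 counts in replicate 1 and 1 count in replicate 2.

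Calcineurin was described next. Its catalytic genes summed to almost the same level in the 2 hearts, 40.9 TPM in replicate 1 against 43.4 TPM in replicate 2 (42.1 ± 1.79, SD, n = 2), but with different members. Ppp3ca (ENSMUSG00000028161, chr3:136670124-136937727, plus strand), the alpha catalytic subunit, had 40.9 TPM (2840 counts) in replicate 1 and 23.9 TPM (1491 counts) in replicate 2, within 2-fold. Ppp3cb (ENSMUSG00000021816, chr14:20499364-20546573, minus strand), the beta catalytic subunit, was listed at 0 counts in replicate 1 and had 7.30 TPM (740 counts) in replicate 2. By counts per 1000000 it was at least 299-fold higher in replicate 2 than the 3 counts that a count of 0 allows in replicate 1, by counting error only. Ppp3cc, the gamma catalytic subunit, which is not among the 9 genes, had 0 and 12.1 TPM.

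Ppp3ca thus made 100% of the catalytic TPM in replicate 1 and 55.2% in replicate 2, where Ppp3cb made 16.8% and Ppp3cc 28.0%. The log2 ratio of Ppp3ca to Ppp3cb was 5.39 and 1.59, or 3.49 ± 2.69 (SD, n = 2), so Ppp3ca was higher in both libraries but not beyond 2 SD. Replicate 2 had 1008 protein-coding genes of 5 to 10 TPM. Replicate 1 gave fewer than 3 counts for 279 of them, or 27.7% (exact Clopper-Pearson interval 24.9% to 30.6%, counting error only). Hearts, aliquots and amplifications cannot be told apart in this share either.

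Both catalytic genes hold a 30-base exon near the end of the coding sequence that some models skip. It lies at chr3:136932011-136932040 in Ppp3ca and at chr14:20503247-20503276 in Ppp3cb. The 2 exons share 26 of 30 bases, in capitals, and are shown because most of the Ppp3ca counts were on the model that holds it.
Ppp3ca 30-base exon: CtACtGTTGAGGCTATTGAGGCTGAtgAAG
Ppp3cb 30-base exon: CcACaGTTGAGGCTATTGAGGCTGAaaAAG
Ppp3ca-201, which includes this exon, took 88.7% and 93.1% of TPM. Ppp3ca-202, which skips it, took 5.21% and 6.95%. The shares of these models were thus similar in both hearts. The models also differ in the first exon and in the last one, of 751 bases in Ppp3ca-201 and 2699 in Ppp3ca-202. Their shares are therefore not a measure of the 30-base exon alone, and its inclusion was not tested. In replicate 2 Ppp3cb-202, which also includes the exon, took 98.95% of Ppp3cb TPM. By posterior mean counts its share of TPM there was 84.9%, with 8.20% on another coding model, Ppp3cb-205.

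Rcan1 (ENSMUSG00000022951, chr16:92391953-92470867, minus strand) encodes a protein that binds calcineurin and can inhibit it, and its short form is known as a target of NFAT. It had 36.1 TPM (2454 counts) in replicate 1 and 20.05 TPM (1150 counts) in replicate 2, or 28.1 ± 11.3 TPM (SD, n = 2). Its level lay near that of Ppp3ca in both libraries. The log2 ratio of Ppp3ca to Rcan1 was 0.18 in replicate 1 and 0.24 in replicate 2, or 0.21 ± 0.05 (SD, n = 2). Ppp3ca was 1.16-fold higher, which was beyond 2 SD in TPM and in counts per 1000000. With 2 libraries the likeness is only one of level, and a link between the 2 genes was not tested.

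For this gene 2 models had a row, and they have different starts. The annotated gene begins upstream of both, at position 92470867. The short one starts at chr16 position 92400077 and has 594 coding bases, and the long one starts upstream, at position 92466146, and has 753. The short model, known as the RCAN1.4 form, took 89.2% of TPM (2174 counts) in replicate 1 and 99.4% (1142 counts) in replicate 2. The long model, the RCAN1.1 form, took 10.8% (280 counts) and 0.64% (7.77 counts), with a posterior SD of 49.1 and 10.4 counts. Its count in replicate 2 was below that SD.

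The sequence of the 250 bases before each Rcan1 start is shown, since the counts came mostly from the start of the short model. Both are from the RefSeq promoter table (GRCm38.p6, minus strand, 5′ to 3′), at chr16:92400079-92400328 for the start 1 base from that of the short model and at chr16:92466170-92466419 for the start 23 bases from that of the long model. Capitals mark GGAAA or its reverse complement TTTCC, the core letters that NFAT factors are known to bind.
Rcan1 short-model promoter: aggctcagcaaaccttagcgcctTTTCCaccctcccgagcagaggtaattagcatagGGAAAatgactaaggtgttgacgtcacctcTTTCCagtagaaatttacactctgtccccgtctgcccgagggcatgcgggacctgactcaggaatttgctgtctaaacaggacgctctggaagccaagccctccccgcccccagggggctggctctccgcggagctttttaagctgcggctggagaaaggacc
Rcan1 long-model promoter: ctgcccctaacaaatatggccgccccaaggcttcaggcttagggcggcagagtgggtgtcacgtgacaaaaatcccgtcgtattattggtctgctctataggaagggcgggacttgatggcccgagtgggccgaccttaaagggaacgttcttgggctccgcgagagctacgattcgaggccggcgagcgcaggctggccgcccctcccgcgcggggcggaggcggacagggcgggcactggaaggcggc
The window of the short model held 3 matches, none overlapping another, and that of the long model held 0. Of 32851 promoters of the same length in the table, 55.6% held at least 1 match and 6.39% held at least 3. A match is a run of letters and not a shown binding site, and its part in the use of the start was not tested.

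**Figure D5:**
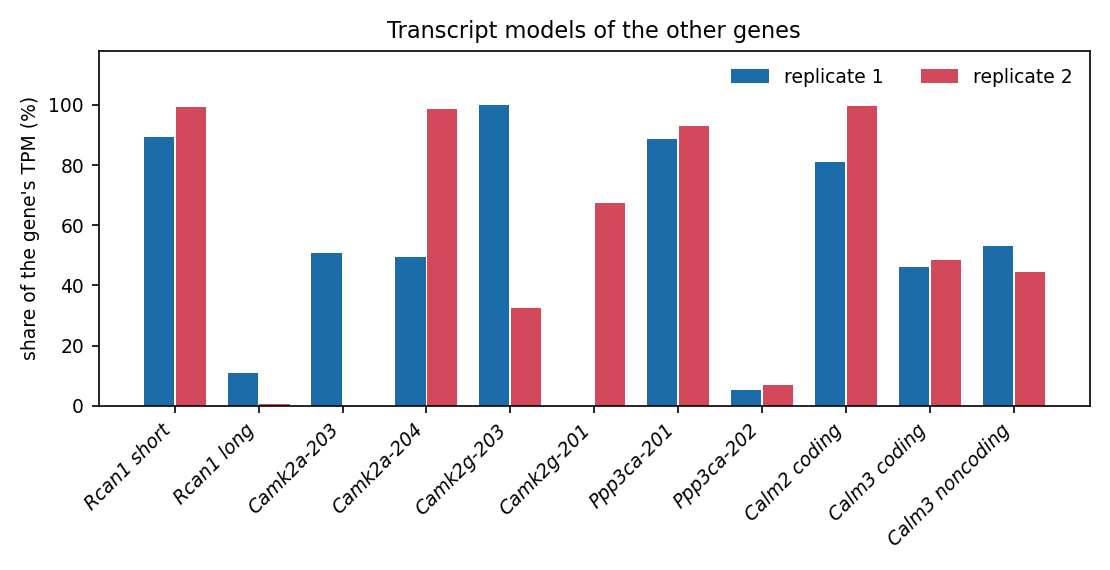
Share of each gene's TPM, in percent, taken by the main transcript models of Rcan1 (short and long), Camk2a, Camk2g, Ppp3ca, Calm2 and Calm3 in each library, with 1 bar per library and no error bars. The short Rcan1 model, Ppp3ca-201 and the coding model of Calm2 lead in both libraries, while Camk2g-203 goes from 100% to 32.6% and Camk2a-203 from 50.7% to 0.

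Of the 9 genes, 6 had 1000 counts or more in each library and more than 1 model. The leading model was the same in both libraries for 4 of them, Calm2, Camk2d, Ppp3ca and Rcan1, and differed for Calm3 and Camk2g. Over 2736 protein-coding genes of that depth, the leading model differed in 24.3%, and the move in its share had quartiles of 1.38 and 29.9 percentage points. The share of the Camk2g model moved by more than the upper quartile, and those of Camk2d, Ppp3ca and Rcan1 by less.

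In order of mean TPM the genes ran Calm2, Camk2d, Calm3, Ppp3ca, Rcan1, Camk2g, Camk2a, Ppp3cb and Camk2b. Of the 8 pairs of neighbours in that order, 3 differed by the 2 SD rule, Calm2 over Camk2d (log2 ratio 2.11 ± 0.77), Calm3 over Ppp3ca (0.86 ± 0.22) and Ppp3ca over Rcan1. In counts per 1000000 only the last of these still passed. Camk2d and Calm3 did not differ, at 0.08 ± 1.81, and changed places between the libraries. Rcan1 and Camk2g (0.33 ± 1.67), Camk2g and Camk2a (0.70 ± 2.47), and Camk2a and Ppp3cb (2.24 ± 3.53) also changed places.

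The genes whose levels were nearest to those of Camk2d, by Euclidean distance in log2(TPM + 1) over the 2 libraries, were Mmd, Icam2 and Polr2c, at distances of 0.050, 0.086 and 0.10. Mmd had 36.8 and 101 TPM. Nearest to Calm2 were Ndufa11, Spag7 and Gabarap, at 0.0081, 0.072 and 0.084. With 2 libraries such a likeness is only one of level.

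The other genes of the pathway were taken from lists of 52 genes, of which 29 were read in both libraries and 13 in neither. Of all protein-coding genes, 28.4% were read in both. Of the 31 that averaged at least 5 TPM, 9 were over 2-fold higher in replicate 2, 5 were over 2-fold higher in replicate 1 and 17 lay within 2-fold, with a median log2 difference of 0.52 against 0.0064 over all genes. Again 54.6% of all genes at that level lay over 2-fold apart. In counts per 1000000, with 1 added before the log, 12 of the 31 were over 2-fold apart, 10 of them also in TPM, against 54.4% of all genes of that level. Mef2a, Nfat5, Ptbp1 and Srsf1 were no longer so, and Cabin1 and Dyrk1a were added, a comparison chosen after the data were seen.

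Among 11 further calmodulin-dependent kinases and CaM kinase II inhibitors, 3 were read in both libraries, against 28.4% of all protein-coding genes. Mylk3, the cardiac myosin light chain kinase, was the highest, at 182 and 334 TPM, within 2-fold. Camk1 had 33.8 and 133 TPM, and Camk1g had 0 and 15.03 TPM, both over 2-fold higher in replicate 2. Eef2k, which phosphorylates elongation factor 2, had 39.9 and 0.031 TPM, the widest gap of the list. The inhibitors Camk2n1, at 0 and 0.21 TPM, and Camk2n2, at 0 in both, were not read; these 2 were named after their values were seen.

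Of 12 further subunits and regulators of calcineurin, 8 were read in both libraries, against 28.4% of all protein-coding genes. Of 9 tested, 6 lay within 2-fold, while 54.6% of all genes averaging at least 5 TPM lay over 2-fold apart. The immunophilins Ppia (1735 and 2693 TPM) and Fkbp1a (538 and 538 TPM), which bind calcineurin in complex with drugs, were the highest. Myoz2, a sarcomere protein that tethers calcineurin at the Z-disc, had 473 and 521 TPM, and Rcan2 had 60.8 and 50.7 TPM, above Rcan1 in both libraries. The regulatory subunit Ppp3r1 had 39.3 TPM in replicate 1 against 4.18 TPM in replicate 2, and was named after its values were seen. It was thus over 2-fold higher in replicate 1, where Ppp3ca was the only catalytic gene detected.

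The NFAT factors were low. Nfat5, which lacks the calcineurin-binding part of the others, had 5.21 and 18.6 TPM, Nfatc1 0.79 and 2.41 TPM and Nfatc3 2.63 and 1.77 TPM, while Nfatc2 and Nfatc4 were at 0 in both libraries; the Nfatc genes were named after their values were seen. The kinases that return NFAT to the cytoplasm were higher, with Csnk1a1 at 197 and 249.1 TPM, Gsk3b at 18.8 and 28.8 TPM and Dyrk1a at 18.6 and 10.9 TPM, all within 2-fold in TPM.

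Among 8 known substrates of CaM kinase II, 6 were read in both libraries, against 28.4% of all protein-coding genes. Pln, the regulator of the sarcoplasmic calcium pump, had 1538 and 1972 TPM. The L-type calcium channel gene Cacna1c had 35.4 and 53.7 TPM, and the ryanodine receptor gene Ryr2 29.8 and 43.3 TPM. These 3 lay within 2-fold, while the class II histone deacetylases Hdac5 (23.8 and 10.8 TPM) and Hdac9 (10.4 and 0.12 TPM) were over 2-fold higher in replicate 1. Of the MEF2 factors, which those deacetylases are known to hold back, Mef2a had 27.1 and 74.8 TPM, Mef2c 22.8 and 30.2 TPM and Mef2d 7.11 and 0.93 TPM. In TPM, Mef2a was over 2-fold higher in replicate 2, though not in counts per 1000000 (117 and 196), and Mef2c within 2-fold, and Mef2d had a mean under 5 TPM.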

How the data were processed

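RNA of whole newborn hearts was sequenced in 2 libraries of 13 pg each. The authors deposited a gene and a transcript table per library. Per the file headers these hold expected counts, which need not be whole, posterior means and posterior SDs of the counts, another estimate of the same, and TPM, and, for transcripts, the percent of the gene's TPM. Deposited text notes name mm10 and GENCODE M4. Which aligner and quantifier were run is not given in the sources used here. Names, positions and exons are those of GENCODE M21, which uses that assembly. Identifiers matched for 42462 of 43346 genes, and gene models can differ between the releases.

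TPM was rescaled to 1000000 over mouse genes. Log ratios used log2(TPM + 1), which understates changes of low genes. A pair was described as different when the sign was shared by both libraries and the mean was beyond 2 SD. This is a description with n = 2 and no test. The depth was 40648700 and 33173400 expected counts, spike-ins included, and a count of 0 allows 3 counts. Reads carry no molecular identifiers and no strand rule is given, so sense and antisense counts are not separated. 1810062O18Rik, Gm15551, Mir6982 and Mir7220, which overlap the 9 genes, were at 0 counts in both libraries, and the other overlapping genes of the annotation had no row. RefSeq promoters were found for 5 of the 9 genes. Some genes of the lists are counted but not reported here by name.

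The members, gene lists and rules were chosen with earlier results of these data known. The rule for named genes takes all 9 members, their models with a share of 5% or more for Camk2d and Rcan1 and the leading models of the others, up to 4 genes with the highest mean and the 1 with the largest difference in each pathway list, and the 3 nearest genes of Camk2d and Calm2. The other models of Camk2a, Camk2g and Ppp3ca were described after their values were seen.

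Alternatives were a pseudocount of 0.1, 5 TPM for a read gene, no filter on low values, posterior means or expected counts in place of TPM, TMM factors of edgeR 4.0.16, size factors of DESeq2 1.42.0 (both run on rounded expected counts) and leaving out each replicate. The software was R 4.3.3 and Python 3.11.15, with pandas 2.3.3, numpy 2.4.6, scipy 1.17.1 and matplotlib 3.10.9.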

Additional observations from a re-analysis of the deposited data

How the results depend on the processing

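Of 21 alternatives over 7 results, other than those that leave out a replicate, 19 stayed within 1 SD, or within 1.5 times for a count, and none turned a direction. The SD is that of 2 libraries, so the limit was wide for some results, such as 1.04 for the log2 ratio of Calm2 to Calm3 and 2.69 for Ppp3ca to Ppp3cb. In expected counts the ratio of Calm2 to Calm3 stayed within that limit, at 1.97 ± 1.08, but was no longer beyond 2 SD. With a pseudocount of 0.1, the log2 ratio of Camk2d to Camk2g went from 1.48 to 1.52, against an SD of 0.03. In expected counts the leading Camk2d model held 73.8% in place of 64.4%, since counts do not correct for length. Of the 9 genes, 3 lay over 2-fold apart in expected counts, Calm3 falling just short, and 5 did without a filter on low values, Ppp3cb being added. TMM and DESeq2 factors kept the count at 4. Leaving out either replicate leaves 1 library and no SD, and with 2 libraries each lies within 1 SD of their mean by construction, so this says nothing of stability: the Camk2d share of CaM kinase II then ran from 48.7% to 70.6%, the leading Camk2d model from 57.9% to 70.9%, and the log2 ratio of Ppp3ca to Ppp3cb from 1.59 to 5.39.

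No paired analysis was possible because the libraries form 1 group. With 2 libraries the precision of every level is low. Of the protein-coding genes that replicate 2 placed at 5 to 10 TPM, 27.7% had fewer than 3 counts in the other library. Division of reads between models of Camk2g and Camk2d carries posterior SDs of 107 to 226 counts.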

Other observations

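Noncoding models took part of the TPM of several of the 9 genes. For Camk2d, the models Camk2d-215, Camk2d-217 and Camk2d-218, which are annotated with a retained intron, held 6.55%, 4.85% and 0 of TPM in replicate 1 and 1.25%, 6.71% and 8.52% in replicate 2. The coding models of Camk2d held 88.5% and 83.3% of TPM and 95.3% and 97.2% of counts. For Calm2, the 2 models with a retained intron held 8.16% and 10.9% in replicate 1 and 0.25% and 0.07% in replicate 2. The coding share of Ppp3ca was 93.9% and 100%, and Rcan1, Camk2a and Camk2g had counts on coding models alone in both libraries. Calm3 had the lowest coding share of the genes that were read in both libraries, at 46.1% and 48.6% of TPM, against 83.0% and 83.6% of counts.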
